A study of Homo sapiens with 16 samples.

Results

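The HOX genes were examined in RNA sequencing of 2 human cell lines after knockdown of the transcription factors MYBL1 (A-MYB) and MYBL2 (B-MYB). Members were the protein-coding genes named HOXA, HOXB, HOXC or HOXD with a number, and 34 of the 19315 genes listed in any table qualified. The annotation used here holds 39 such genes, and HOXB1, HOXC12, HOXD1, HOXD12 and HOXD13 were listed in none of the 6 tables used here. Listed members comprised 11 of 11 HOXA genes, 9 of 10 HOXB genes, 8 of 9 HOXC genes and 6 of 9 HOXD genes. The lines were HCT116, derived from a colorectal carcinoma, and U2OS, derived from an osteosarcoma. Cells of each line received a non-targeting siRNA (siCtrl), siRNA to MYBL1, siRNA to MYBL2, or the siRNAs to both (the double knockdown), for 48 hours. All 8 groups held 2 libraries, stated to be biological replicates, and each knockdown was compared with siCtrl of its own line.

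HOX genes encode homeodomain transcription factors that give cells along the body axis their positional identity. They lie in 4 clusters, and genes of the same number in different clusters, called paralogs, descend from 1 ancestral gene. In the embryo, low numbers are switched on early and towards the head and high numbers late and towards the tail. Adult and cancer cells keep much of this pattern: Polycomb proteins hold silent HOX genes off, trithorax and MLL proteins keep active ones on, and cofactors such as MEIS proteins bind DNA beside HOX proteins. MYBL2 acts with the MuvB complex at promoters of genes of late cell cycle phases, and HOX genes are not classical members of that set.

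The tables gave 1 set of values per comparison, so values of single libraries, and with them the spread between replicates and the depth, are not known here. The standard error (SE) of each log2 fold change is an estimate of the authors' DESeq2 model. It is not an observed spread between the replicates of a gene. Log2 values are given as fold change ± SE, and q is the adjusted p, from the authors' DESeq2 Wald test unless said otherwise. Base means, the normalized counts averaged over the 4 libraries of a comparison, summed to between 17441617 and 19826741 per table, and the lowest listed base mean ranged from 4.46 to 40.4. In the authors' deposited table MYBL2 stood at log2 -3.47 ± 0.18 in HCT116 and -4.47 ± 0.18 in U2OS after siMYBL2, and MYBL1 at -1.67 ± 0.32 and -0.98 ± 0.31 after siMYBL1. In the authors' deposited table for the double knockdown, MYBL2 stood at -3.33 ± 0.17 and -4.53 ± 0.18, and MYBL1 at -1.85 ± 0.37 and -1.20 ± 0.34. The line labels were compared with marker genes: siCtrl levels, in normalized counts per 1000000 (npm), of EPCAM were 302 in HCT116 and 12.9 in U2OS, of CDH1 78.5 and 0.750, and of VIM 2.56 and 1501. Of 10 mesenchymal markers 8 were listed in each line, with summed siCtrl levels of 60.2 to 63.5 npm in HCT116 and 4418 to 4473 in U2OS, although COL1A2 and TWIST1 were not listed in U2OS. Of 10 epithelial markers 9 were listed in HCT116, at 3811 to 3931, and 6 in U2OS, at 3256 to 3354. Among those listed in both lines, KRT8 (1747 npm in HCT116 and 2243 in U2OS) and KRT18 (698 and 1015) were higher in U2OS. EPCAM, CDH1, CLDN4 and ELF3 were lower there. Blood cell markers summed to between 1.01 and 2.91 npm in both lines, and 5 and 6 of 8 were not listed in HCT116 and U2OS.

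Both lines expressed HOX genes, from the 4 clusters in different proportions. The HOXA cluster lies on chromosome 7 (27092993 to 27200091 of hg38, over the listed members, reverse strand), HOXB on chromosome 17 (48540894 to 48728750, reverse strand), HOXC on chromosome 12 (53938831 to 54056030, forward strand) and HOXD on chromosome 2 (176104216 to 176173102, forward strand). The siCtrl level was worked out from base mean and fold change, in npm of the table's summed base means, and divided by transcript length in kb wherever genes are set against each other. HOXA and HOXB genes made up 38.6% and 52.9% of the summed HOX level per kb in HCT116, HOXC genes 6.88% and HOXD genes 1.57%. In U2OS the shares were 12.3% for HOXA, 41.9% for HOXB, 34.1% for HOXC and 11.8% for HOXD. These levels have no replicate error, the tables of a line share their control libraries, and tables were normalized separately, so no test was made.

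In HCT116 the highest level per kb was that of HOXA9, a regulator of blood stem cells that is often overactive in leukaemia, at 43.8 npm per kb (between 41.9 and 43.9 in its 3 tables). HOXB7 followed at 34.9 and HOXB8 at 26.8, then HOXB6 at 13.2, HOXB9 at 11.7, HOXA7 at 10.7 and HOXA10 at 9.07. The leading HOXC gene was HOXC9 at 5.31 per kb, and the leading HOXD gene HOXD8 at 2.45. U2OS had another order. HOXB2, which patterns the hindbrain in the embryo, led at 31.7 per kb (31.6 to 32.8), followed by HOXC10 at 21.9, HOXB9 at 17.7, HOXB7 at 15.0, HOXC13 at 10.7 and HOXC9 at 10.6. HOXD11 at 8.78 and HOXD10 at 7.34 led the HOXD cluster, and HOXA9 at 5.63 the HOXA cluster. Without replicate spread, neighbours in either order cannot be told apart.

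**Figure D1:**
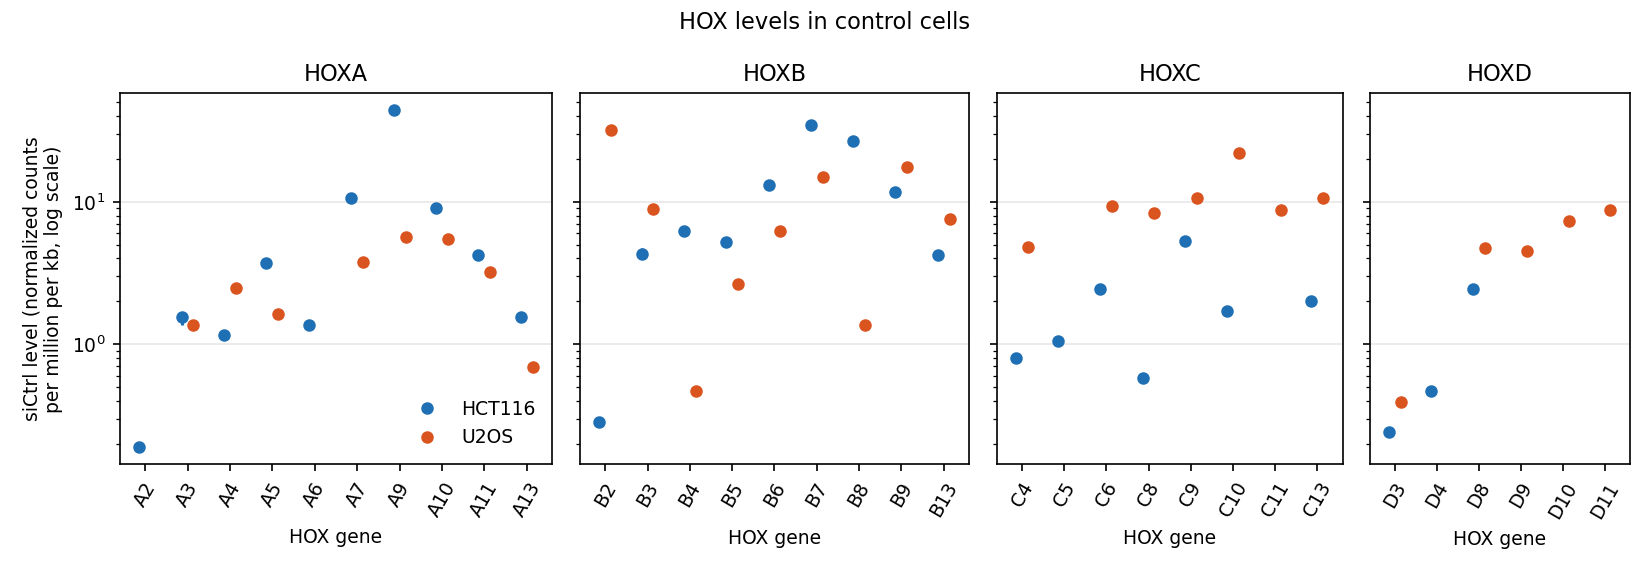
Level of each HOX gene in siCtrl cells of HCT116 (blue) and U2OS (orange), in npm per kb on a log axis, by cluster; points are medians and bars the range over the tables of a line that list the gene, with 1 HOXA member not shown. HOXC genes that both lines list, and HOXD8, sit higher in U2OS, HOXC11 and HOXD9 to HOXD11 are listed in U2OS alone and HOXC5 in HCT116 alone, and HOXA5 to HOXA13 and HOXB4 to HOXB8 sit higher in HCT116, with HOXA6 listed there alone.

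Of the 34 members, 26 were listed in both lines, 4 in HCT116 alone and 4 in U2OS alone. For the 26, the same gene was compared between lines by its siCtrl level in npm. Of these, 9 were at least 2-fold higher in U2OS, 9 at least 2-fold higher in HCT116 and 8 lay within 2-fold. The widest gap was HOXB2, at 0.444 npm in HCT116 and 49.5 in U2OS, a ratio of 112, although the HCT116 value comes from 1 table with a base mean of 16.2. HOXC8 was 14.4 times and HOXC10 12.8 times higher in U2OS. In the other direction HOXB8 was 19.7 times, HOXB4 13.2 times and HOXA9 7.78 times higher in HCT116. HOXB9 and HOXB13 lay within 2-fold. By cluster, 5 of 6 HOXC genes were at least 2-fold higher in U2OS and 0 of 6 in HCT116, whereas 5 of 9 HOXB genes and 4 of 9 HOXA genes were at least 2-fold higher in HCT116 and 2 of 9 in each of these clusters in U2OS.

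HOXC11, HOXD9, HOXD10 and HOXD11 were listed in U2OS alone. Their base means in U2OS ran from 128 to 477, and none was listed in HCT116, where the most inclusive table reached a base mean of 4.46. HOXA2, HOXA6, HOXC5 and HOXD4 were listed in HCT116 alone, with base means of 5.06 for HOXA2, 35.5 to 45.2 for HOXA6, 32.9 to 37.3 for HOXC5 and 10.4 for HOXD4. HOXA2 and HOXD4 lie below 14.5, the lowest base mean listed in U2OS, so their absence there says little. HOTAIR, a long noncoding RNA from the HOXC cluster, was also higher in U2OS, at 0.342 npm in HCT116 and 23.4 in U2OS.

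Few HOX genes passed the test when either factor was knocked down. Over the 6 comparisons with siCtrl there were 163 tests of members, 11 calls at an adjusted p under 0.05 (9 higher, 2 lower), and 6 members called at least once. These were HOXA10, HOXA11, HOXB2, HOXB4, HOXB9 and HOXB13, and the other 28 members were called in none. In HCT116, 0 of 30 listed members were called after siMYBL1, where 0.260% of all genes were; by the same DESeq2 Wald test 3 of the 30 members had an unadjusted p under 0.05, against 4.57% of all genes. After siMYBL2, 1 of 24 was called, against 1.13% of all genes, and in the double knockdown 2 of 22 (9.09%), against 6.95%. In U2OS, 3 of 28 (10.7%) were called after siMYBL1, 1 of 29 (3.45%) after siMYBL2 and 4 of 30 (13.3%) in the double knockdown, against 5.71%, 5.20% and 12.6% of all genes. In HCT116 the called members were all higher, where 0.115% of all genes were called higher and 0.144% lower after siMYBL1, 0.291% and 0.837% after siMYBL2, and 2.82% and 4.12% in the double knockdown. In U2OS 2 were higher and 1 lower after siMYBL1 (all genes 3.44% and 2.27%), 1 higher and 0 lower after siMYBL2 (1.69% and 3.51%), and 3 higher and 1 lower in the double knockdown (6.55% and 6.06%). No test of HOX genes as a set was made. Each line's 3 comparisons share their control libraries, so counts within a line are not independent.

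**Figure D2:**
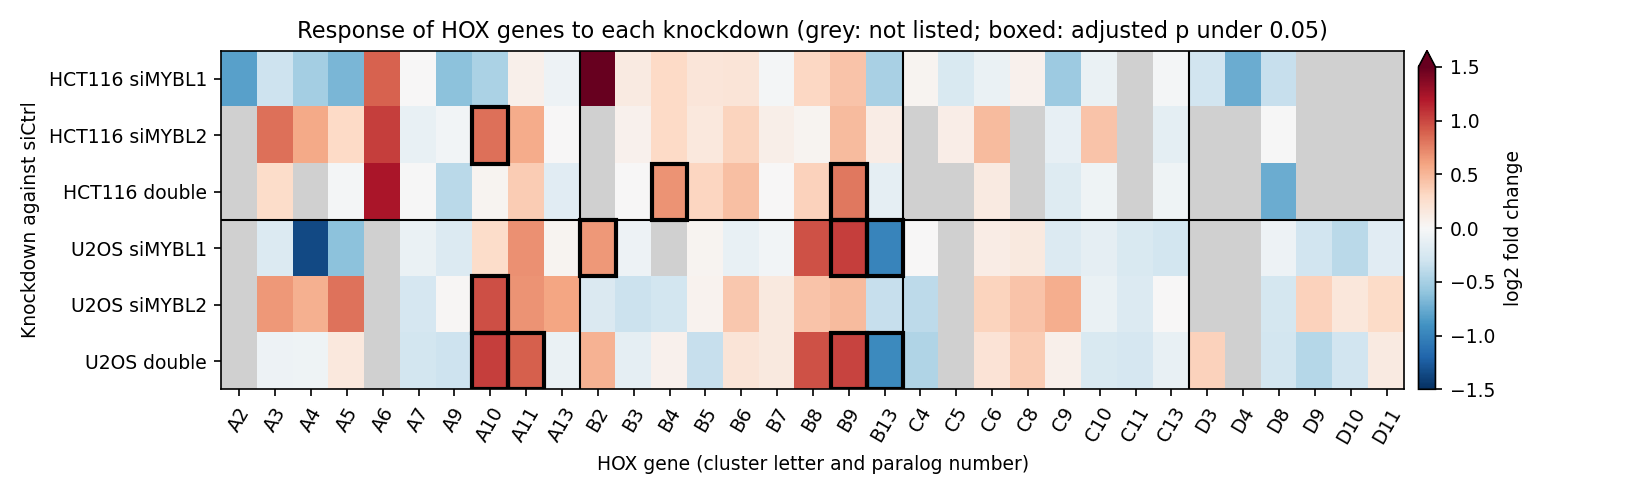
Log2 fold change of each HOX gene (columns, by cluster and paralog number) in each knockdown against siCtrl (rows); red is higher and blue lower after knockdown, grey means not listed, and black boxes mark adjusted p under 0.05, with 1 HOXA member not shown. The 11 boxes fall on 6 genes, all in HOXA and HOXB, and the HOXC and HOXD columns hold none.

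HOXB9 and HOXA10 rose in 3 comparisons each. HOXB9 is a posterior HOXB gene (chromosome 17, 48621156 to 48626358 of hg38, reverse strand). Its exons share no bases with exons of another annotated gene, although it lies within the span of HOXB7 on the same strand. In U2OS its level, in normalized counts worked out for each side, went from 781 in siCtrl to 1604 after siMYBL1, from 820 to 1133 after siMYBL2 and from 795 to 1604 in the double knockdown. All 3 knockdown levels lay above the siCtrl levels. The authors' deposited table gave 1.04 ± 0.20 (q = 3.93e-05) for siMYBL1, 0.47 ± 0.19 (q = 0.162) for siMYBL2 and 1.01 ± 0.18 (q = 1.41e-06) for the double knockdown. In HCT116 it went from 561 to 759 after siMYBL1, from 572 to 793 after siMYBL2 and from 607 to 1047 in the double knockdown. Here the authors' deposited table gave 0.43 ± 0.20 (q = 0.935), 0.47 ± 0.19 (q = 0.374) and 0.79 ± 0.18 (q = 0.000768), so only the double knockdown passed. The double knockdown called HOXB9 higher in both lines, which share no library.

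HOXB13, the next gene beyond HOXB9 in the cluster (chromosome 17, 48724763 to 48728750, reverse strand), went the other way in U2OS. It marks posterior structures such as the prostate and distal gut, and its exons share no bases with exons of another annotated gene. Its level in U2OS fell from 454 to 229 normalized counts after siMYBL1 and from 462 to 239 in the double knockdown, and it stood at 476 and 374 on the siCtrl and siMYBL2 sides. Fold changes in the authors' deposited table were -0.99 ± 0.27 (q = 0.00783), -0.95 ± 0.26 (q = 0.00333) and -0.35 ± 0.23 (q = 0.597) in that order. In HCT116 the authors' deposited table held -0.49 ± 0.26, 0.11 ± 0.26 and -0.14 ± 0.25 for siMYBL1, siMYBL2 and the double knockdown, with q = 0.847 or more. HOXB13 was the single member called lower in any comparison.

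HOXA10 rose where MYBL2 was targeted, with 1 exception. This gene (chromosome 7, 27170605 to 27180261, reverse strand) acts in the reproductive tract, limb and blood. After siMYBL2 its level went from 435 to 774 normalized counts in HCT116 and from 261 to 511 in U2OS. The authors' deposited table gave 0.83 ± 0.23 (q = 0.0362) and 0.97 ± 0.24 (q = 0.00241). In the double knockdown HOXA10 rose in U2OS, from 238 to 489, at 1.04 ± 0.25 (q = 0.000533) in the authors' deposited table, while in HCT116 it stood at 479 and 493, at 0.04 ± 0.21 (q = 0.954). After siMYBL1 it was called in neither line, at -0.47 ± 0.23 (q = 1) in HCT116 and 0.27 ± 0.32 (q = 0.773) in U2OS in the authors' deposited table. Its neighbour HOXA11 (chromosome 7, 27181157 to 27185232, reverse strand), which patterns the forearm and uterus, rose in the U2OS double knockdown from 130 to 243, at 0.90 ± 0.31 (q = 0.0349) in the authors' deposited table. In U2OS the authors' deposited table put HOXA11 at 0.69 ± 0.32 (q = 0.235) after siMYBL1 and 0.67 ± 0.33 (q = 0.327) after siMYBL2. In HCT116 the same gene stood at 0.08 ± 0.30, 0.56 ± 0.30 and 0.38 ± 0.29 in the authors' deposited table, with q = 0.543 or more.

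Antisense genes overlap both. In the annotation 9.93% of HOXA10 exon bases are shared with AC004080.3, a protein-coding gene on its strand, and 16.4% with HOXA10-AS on the opposite strand, while 31.1% of HOXA11 exon bases face HOXA11-AS. No source used here states whether reads were counted by strand, so reads of these pairs may not be separable. HOXA10-AS stood at -0.40 ± 0.23 in HCT116 after siMYBL2 and was not listed in U2OS, and HOXA11-AS stood at -0.68 ± 0.57 in the U2OS double knockdown, from the authors' deposited table. Their part in the HOXA10 and HOXA11 values was not tested. The called HOXB4 shares 12.8% of exon bases with AC103702.1 and 4.23% with HOXB3 on its strand. HOXB2 shares 3.72% with HOXB-AS1 on the opposite strand. The HOXB4 transcript of this annotation, at 3757 bases, is longer than the gene span printed for HOXB4 below. HOXB4 overlap shares and its level per kb may therefore not describe the gene as counted. Larger shares occur among uncalled members, such as 80.5% of HOXD4 with AC009336.2 and 62.5% of HOXA7 with HOXA-AS3. Only 10 members share no exon bases with another gene, so the limit also holds for levels.

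HOXB2 and HOXB4 were each called once. HOXB2 (chromosome 17, 48540894 to 48545109, reverse strand) went from 864 to 1359 normalized counts in U2OS after siMYBL1, at 0.65 ± 0.21 (q = 0.0340) by the authors' deposited table. With both factors targeted it went from 863 to 1236, at 0.52 ± 0.21 (q = 0.0908), and after siMYBL2 it stood at 914 and 782, at -0.22 ± 0.22 (q = 0.808), in the authors' deposited table. HOXB4 (chromosome 17, 48575507 to 48578350, reverse strand), known for expanding blood stem cells, went from 466 to 743 in the HCT116 double knockdown, at 0.67 ± 0.22 (q = 0.0372) in the authors' deposited table. Both single knockdowns left it at 0.30 in HCT116, with SE 0.23 for siMYBL1 and 0.24 for siMYBL2, in the authors' deposited table. In U2OS, where HOXB4 had a base mean of at most 31.4, its SE in the authors' deposited table was 0.67 to 0.68, too wide to show a change of that size.

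**Figure D3:**
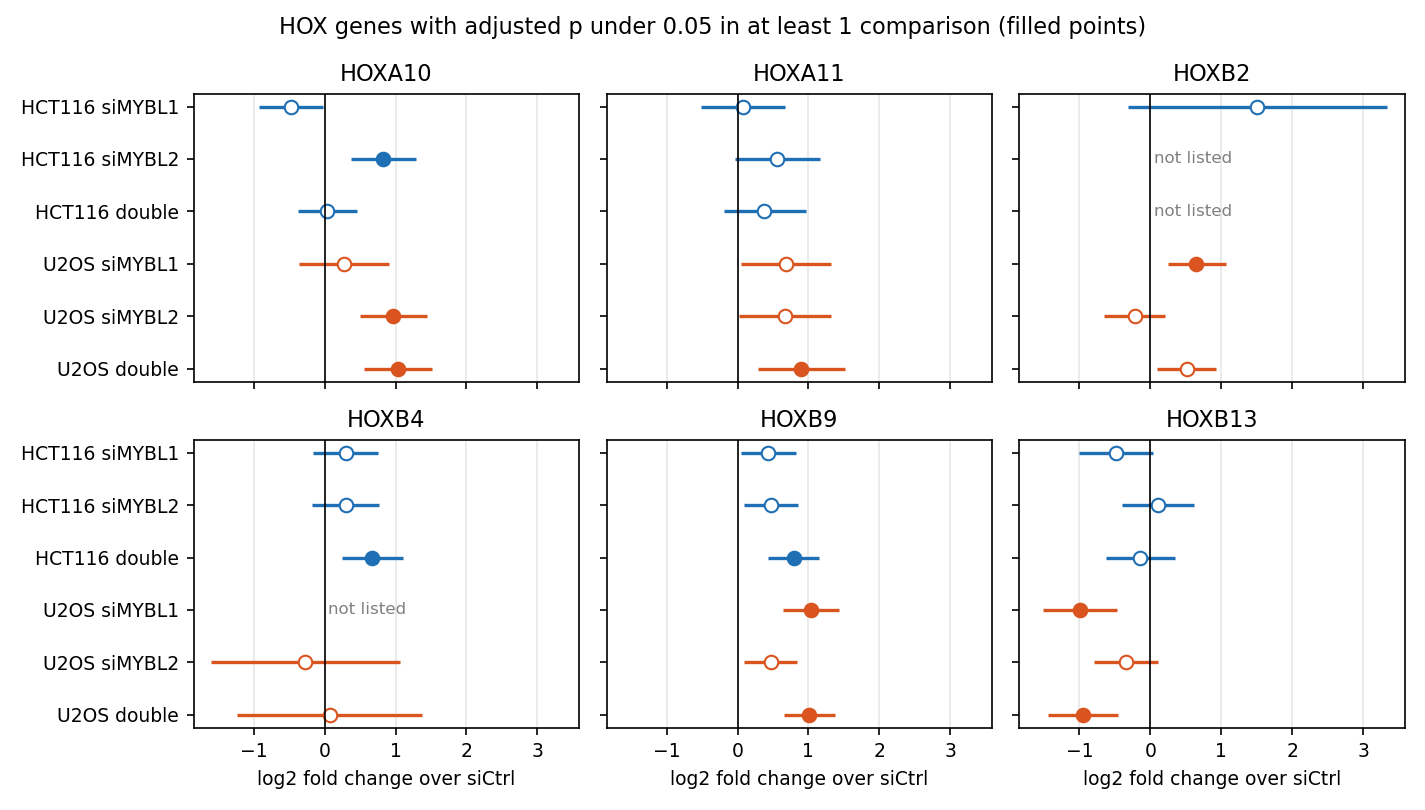
Log2 fold change over siCtrl (points) with its 95% interval (bars) for the 6 HOX genes called at least once, in HCT116 (blue) and U2OS (orange); filled points have adjusted p under 0.05. HOXB9 lies above 0 in all 6 comparisons. HOXB13 is filled in U2OS alone, below 0, and its open HCT116 points lie at -0.49, 0.11 and -0.14 for siMYBL1, siMYBL2 and the double knockdown.

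Promoters are shown for HOXA10 and HOXA11, the called members that the RefSeq promoter table (GRCh38.p14) matched, to show the letters around their start sites. The table matched 16 of 34 members, with 22 distinct promoter regions, 1 of them shared by HOXC4 and HOXC5. Each run covers 250 bases before to 50 bases after a start site, read in the direction of the gene. Capitals mark any match on either strand to AACNG, the core of the MYB recognition sequence, or to TTTGAA, the CHR element of late cell cycle promoters. HOXA10 has 2 start sites in the table, at chr7:27179812-27180111 and chr7:27174271-27174570, and HOXA11 has 1, at chr7:27185183-27185482, all on the reverse strand.
HOXA10, first start site: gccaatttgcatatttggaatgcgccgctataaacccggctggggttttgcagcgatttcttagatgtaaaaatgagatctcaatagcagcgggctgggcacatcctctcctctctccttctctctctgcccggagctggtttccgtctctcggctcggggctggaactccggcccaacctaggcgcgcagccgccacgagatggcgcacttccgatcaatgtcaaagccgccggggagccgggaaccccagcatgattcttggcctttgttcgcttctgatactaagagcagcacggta
HOXA10, inner start site: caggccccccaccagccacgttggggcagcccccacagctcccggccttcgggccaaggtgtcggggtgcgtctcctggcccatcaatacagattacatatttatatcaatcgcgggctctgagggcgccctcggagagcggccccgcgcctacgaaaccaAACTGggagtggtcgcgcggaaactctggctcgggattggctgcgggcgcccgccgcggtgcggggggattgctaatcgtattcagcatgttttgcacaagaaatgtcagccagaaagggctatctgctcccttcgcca
HOXA11: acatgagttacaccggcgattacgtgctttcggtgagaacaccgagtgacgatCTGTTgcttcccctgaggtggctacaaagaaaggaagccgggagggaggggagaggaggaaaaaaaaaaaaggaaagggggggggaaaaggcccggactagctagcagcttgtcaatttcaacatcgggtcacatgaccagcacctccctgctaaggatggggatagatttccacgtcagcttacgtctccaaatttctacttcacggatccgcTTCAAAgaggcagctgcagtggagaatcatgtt
With the first transcribed base as position 1, the AACNG match of the inner HOXA10 promoter begins at -89, and HOXA11 has an AACNG match from -197 and a TTTGAA match from 18, which do not overlap. The first HOXA10 promoter holds neither. AACNG occurred in 14 of 22 member promoters (63.6%) and in 77.1% of 34943 distinct promoters of the same length, and TTTGAA in 3 of 22 (13.6%) and in 15.2%. A match describes letters and is not evidence of binding.

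Members that were not called covered a wide range of precision. After siMYBL2, most HOXA genes lay above 0 in both lines. In HCT116, 8 of 10 listed HOXA genes had a log2 fold change above 0, with a median of 0.57, where the median of all genes was -0.02 and 47.1% of them lay above 0. In U2OS, 8 of 9 were above 0, with a median of 0.59, against 0.01 and 50.7% for all genes. In HCT116 after siMYBL2 the 7 listed mesenchymal markers, of which 0 were called, also lay above 0, between 0.25 and 1.70 with a median of 0.71, and in U2OS the 8 listed had a median of -0.10. Their part in the HOXA values was not tested. HOXA10 was the single HOXA gene called in each line. Examples that did not pass in HCT116 were HOXA3 at 0.83 ± 0.38 and HOXA6 at 1.04 ± 0.68, and in U2OS HOXA5 at 0.82 ± 0.49 and HOXA3 at 0.65 ± 0.44, in the authors' deposited table. After siMYBL1 the HOXA medians were -0.31 in HCT116 and -0.21 in U2OS, and in the double knockdowns 0.04 and -0.08. HOXA9, the HOX gene with the highest level per kb in HCT116, stood at 1638 and 1072 normalized counts on the siCtrl and siMYBL1 sides, at -0.61 ± 0.17 (q = 0.0775) in the authors' deposited table. It did not pass elsewhere either, with -0.41 ± 0.19 (q = 0.193) in the HCT116 double knockdown and -0.31 ± 0.31 (q = 0.643) in that of U2OS, in the authors' deposited table. HOXA7 lay between -0.27 and -0.00 across the 6 comparisons, with an SE of 0.22 to 0.36. The lowest HOXA value was HOXA4 in U2OS after siMYBL1, at -1.35 ± 0.60 (q = 0.192) in the authors' deposited table.

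Within HOXB, the genes between HOXB3 and HOXB8 were not called, apart from HOXB4. HOXB7, abundant in both lines, lay between -0.04 and 0.15 over the 6 comparisons with an SE of 0.17 to 0.25, and its 95% intervals all stayed within a 2-fold change. HOXB8 stood at 0.96 ± 0.51 after siMYBL1 and 0.96 ± 0.49 in the double knockdown in U2OS, where its base mean was 61.3 and 68.8, and q was 0.331 and 0.219 in the authors' deposited table. In HCT116, with a base mean of 1017 and 1139, the authors' deposited table put it at 0.31 ± 0.16 and 0.35 ± 0.19 for the same knockdowns. HOXB6 lay at 0.45 ± 0.20 (q = 0.186) in the HCT116 double knockdown, from the authors' deposited table. HOXB medians were 0.19, 0.13 and 0.33 in HCT116 and -0.00, 0.05 and 0.15 in U2OS, in the order siMYBL1, siMYBL2, double knockdown. After siMYBL2 in HCT116, 8 of 8 HOXB genes lay above 0, between 0.04 and 0.47, and none was called.

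HOXC and HOXD genes held no call in any comparison, at q = 0.335 or more. HOXC changes in U2OS, where the cluster was active, lay between -0.45 and 0.55, and in HCT116 between -0.55 and 0.48. In U2OS after siMYBL1, the 95% intervals of 7 of 7 HOXC genes and 4 of 4 HOXD genes stayed within a 2-fold change, as did those of 5 of 7 and 4 of 4 after siMYBL2 and 6 of 7 and 3 of 5 in the double knockdown. HOXC10, the HOXC gene with the highest level per kb in U2OS, stood at -0.14 ± 0.20, -0.10 ± 0.20 and -0.23 ± 0.20 for siMYBL1, siMYBL2 and the double knockdown, from the authors' deposited table. HOXC13, a hair follicle regulator, lay at -0.28 ± 0.23, 0.01 ± 0.23 and -0.11 ± 0.28, and HOXC9 at -0.21 ± 0.31, 0.55 ± 0.27 and 0.08 ± 0.27, in the authors' deposited table. HOXD10 and HOXD11, limb genes, were at -0.29 ± 0.31 and 0.13 ± 0.29 in the U2OS double knockdown, from the authors' deposited table. In HCT116, HOXD8 stood at -0.75 ± 0.46 (q = 0.402) in the double knockdown, from the authors' deposited table, the lowest value of any member there.

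By paralog number, posterior members (groups 9 to 13) held 9 calls in 66 tests. Central members (groups 4 to 8) held 1 in 72, and anterior members (groups 1 to 3) 1 in 25. All genes were called at 0.260%, 1.13% and 6.95% in HCT116 and 5.71%, 5.20% and 12.6% in U2OS, in the order siMYBL1, siMYBL2, double knockdown. Posterior members gave 13 tests per comparison in U2OS and 9 in HCT116, so the classes were weighted differently by line. The posterior calls fell on 4 genes, HOXA10, HOXA11, HOXB9 and HOXB13, some of them repeated in comparisons that share controls, and the difference between classes was not tested. Posterior medians were -0.21, 0.29 and -0.11 in U2OS and -0.10, 0.11 and -0.06 in HCT116, in the order siMYBL1, siMYBL2, double knockdown, so the class did not share a direction. Members were listed at lower base means than other genes, with medians of 91.8 to 251 per table against 311 to 621, and their median SE was 0.28 to 0.40 against 0.21 to 0.26.

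**Figure D4:**
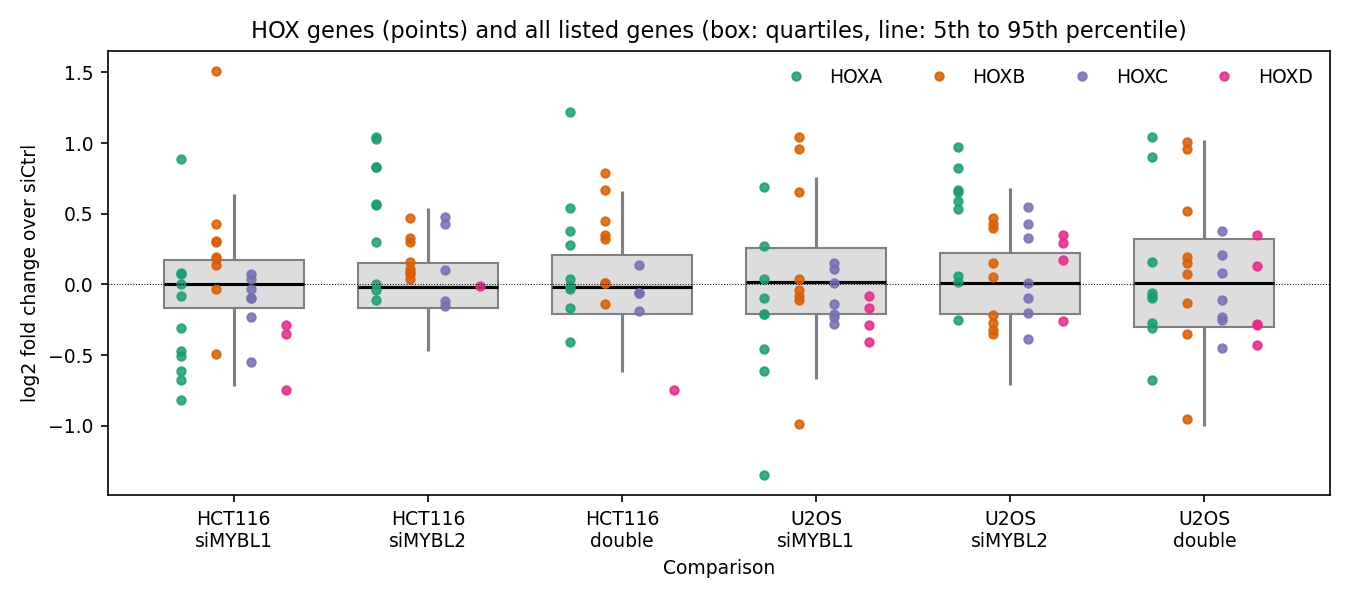
Log2 fold change over siCtrl of each HOX gene (points, coloured by cluster) in the 6 comparisons, over the spread of all listed genes (grey box for quartiles with the median as a black line, thin line from the 5th to the 95th percentile). Member medians lay between -0.11 and 0.23, beside -0.02 to 0.02 for all genes, and after siMYBL2 8 of 10 HOXA points in HCT116 and 8 of 9 in U2OS lie above 0.

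The responses of the lines were then compared directly, by the difference of log2 fold changes (U2OS minus HCT116) over its SE with a normal p adjusted over all genes in both tables. No member passed: 0 of 24 after siMYBL1, 0 of 22 after siMYBL2 and 0 of 21 in the double knockdown, where 0.0594%, 0.215% and 1.27% of all genes did. At an unadjusted p under 0.05 there were 1, 0 and 2 members, against 4.79%, 4.41% and 9.49% of all genes. The smallest p in the double knockdown was that of HOXA10, which differed by 0.99 ± 0.32 (95% interval 0.36 to 1.63, q = 0.108), followed by HOXB13 at -0.81 ± 0.36 (95% interval -1.51 to -0.11, q = 0.386). HOXB9 differed by 0.60 ± 0.28 (95% interval 0.05 to 1.16, q = 0.920) after siMYBL1 and by 0.22 ± 0.26 (95% interval -0.28 to 0.73, q = 0.933) in the double knockdown. HOXA10 after siMYBL2 differed by 0.14 ± 0.33 (95% interval -0.52 to 0.79, q = 1). A call in 1 line and not in the other is therefore not shown to be a difference between lines for any member.

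The double knockdown was set against each single knockdown in the same way. Because both sides share the siCtrl libraries, the SE is too large and the test conservative. None of 22 members in HCT116 passed against siMYBL1 or siMYBL2 (0 called, 1.28% and 0.645% of all genes), with 0 and 1 at an unadjusted p under 0.05 (all genes 5.64% and 3.25%). In U2OS 0 of 28 passed against siMYBL1 and 0 of 29 against siMYBL2 (1.54% and 1.05% of all genes), with 0 and 2 at an unadjusted p under 0.05 (all genes 6.96% and 5.57%). In HCT116 the HOXA10 response to the double knockdown differed from that to siMYBL2 alone by -0.79 ± 0.32 (95% interval -1.41 to -0.17, q = 0.812). In U2OS, HOXB9 differed from siMYBL1 alone by -0.03 ± 0.27 (95% interval -0.56 to 0.51, q = 1) and from siMYBL2 alone by 0.55 ± 0.26 (95% interval 0.03 to 1.06, q = 0.821). HOXB13 differed from siMYBL1 alone by 0.04 ± 0.37 (95% interval -0.69 to 0.76, q = 1), and HOXB2 from siMYBL2 alone by 0.74 ± 0.30 (95% interval 0.15 to 1.34, q = 0.499). In bulk RNA, a change in the share of cells that express a gene cannot be told apart from a change per cell. Marker genes were called too. Of 8 mesenchymal markers listed in U2OS, 4 were higher and 1 lower in the double knockdown, 1 was higher after siMYBL1 and 1 lower after siMYBL2. Of 9 epithelial markers in HCT116, 2 were higher and 1 lower in the double knockdown, and of 6 in U2OS, 1 was lower there. Their part in the HOX values was not tested.

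Genes for proteins that act on HOX genes or with them were called mostly in the double knockdowns. In these, 2.82% of all genes were called higher and 4.12% lower in HCT116, and 6.55% and 6.06% in U2OS. The U2OS shares were 3.44% and 2.27% after siMYBL1, and 1.69% and 3.51% after siMYBL2. No test of these lists as sets was made. Of 33 Polycomb genes, 0 were called in HCT116 after either single knockdown and 3 were lower in the double knockdown, where the median was -0.09. In the authors' deposited table these were EZH2, the methyltransferase of Polycomb complex PRC2, at -0.87 ± 0.17 (q = 1.05e-05), its partner PHF19 at -0.91 ± 0.20 (q = 0.000220) and RBBP7 at -0.49 ± 0.14 (q = 0.0164). In U2OS, 1 was higher after siMYBL1, 1 higher and 2 lower after siMYBL2, and 2 higher and 8 lower in the double knockdown (median -0.09, against 0.01 for all genes). There EZH2 stood at -0.73 ± 0.22 (q = 0.00961), PHF19 at -0.93 ± 0.19 (q = 2.66e-05) and the PRC1 subunits PHC2 and PHC1 at 1.29 ± 0.17 (q = 3.92e-12) and 0.71 ± 0.19 (q = 0.00379), in the authors' deposited table. PHC2 was also the gene called higher after siMYBL1, at 1.03 ± 0.23 (q = 0.000908), and after siMYBL2, at 0.59 ± 0.18 (q = 0.0316), in the authors' deposited table. JARID2, a PRC2 cofactor, stood at -1.07 ± 0.22 (q = 0.000151) and CBX6 at -0.57 ± 0.17 (q = 0.0168) after siMYBL2 in U2OS, in the authors' deposited table.

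Of 22 trithorax and MLL genes, 0 were called in HCT116 after either single knockdown (medians 0.07 and -0.04), and 1 was higher and 1 lower in the double knockdown. These were KDM6B, which removes the PRC2 mark, at 0.75 ± 0.20 (q = 0.00436) and PSIP1, which tethers MLL to chromatin, at -0.53 ± 0.16 (q = 0.0167), in the authors' deposited table. The same genes were the ones called in U2OS after siMYBL1, with KDM6B at 1.20 ± 0.31 (q = 0.00542) and PSIP1 at -0.65 ± 0.18 (q = 0.00862) in the authors' deposited table. In U2OS 0 were called after siMYBL2, and in the double knockdown only HCFC1 was, at -0.50 ± 0.16 (q = 0.0224) in the authors' deposited table. KMT2A, the MLL protein itself, was called in none, with values from 0.07 to 0.37.

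Of 10 HOX cofactor genes, 8 were listed in each table, and 0 were called in HCT116 in any comparison or in U2OS after a single knockdown. Cofactor medians lay between -0.13 and 0.09 over the 6 comparisons. In the U2OS double knockdown 1 was higher and 2 were lower: MEIS3 stood at 0.55 ± 0.19 (q = 0.0340), MEIS1 at -1.30 ± 0.30 (q = 0.000297) and TGIF1 at -0.89 ± 0.20 (q = 0.000145), in the authors' deposited table. MEIS1 was not listed in HCT116. Noncoding RNAs of the clusters were sparse: 3 to 11 of 19 were listed per table, with medians of -0.48 to 0.17, and 0 were called. HOXA-AS2, which overlaps HOXA3 and HOXA4 on the opposite strand, stood at -1.54 ± 0.62 (q = 0.0849) and HOTAIRM1 at -0.90 ± 0.37 (q = 0.0926) in the U2OS double knockdown, from the authors' deposited table. HOTAIR stood there at 0.00 ± 0.24 in the authors' deposited table.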

How the data were processed

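RNA from 16 libraries, 2 per group, was sequenced in paired ends. Per the submitters' processing notes, cutadapt 4.4, Salmon 1.10.1, DESeq2 1.40 and hg38 were used. The authors deposited 6 comparison tables, per the file headers with a base mean (normalized signal per gene), a log2 fold change with its standard error, a test statistic (score), and p-values raw and adjusted. No values per library were used, so depth and replicate spread are unknown. A call is the authors' adjusted p under 0.05. The p-values match a Wald test with Benjamini-Hochberg adjustment recomputed from each table.

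Differences between lines, or between double and single knockdowns, were divided by the root of the summed squared standard errors. The two-sided normal p was adjusted over all shared genes. This was tried on simulated data in which both sides were drawn independently from their standard errors. The siCtrl libraries that double and single knockdowns share were thus not simulated. The siCtrl level was 2 times the base mean divided by 1 plus the fold change. Transcript lengths and exon overlaps came from GENCODE 29, where the HOXB4 transcript is longer than the deposited span of that gene. Scripts used Python 3.11.15, pandas 2.3.3 and scipy 1.17.1.

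All members were eligible to be named, with full statistics for called members and the most abundant of each cluster and line; of the other lists, up to 3 called genes with the smallest adjusted p. Lists covered cofactors, Polycomb, trithorax and MLL, noncoding RNAs, retinoic acid, ParaHox, flanking genes and cell type markers. Members and lists were chosen with earlier results of these data known. The values of 1 member and of some listed genes are not reported here. Alternatives changed the centring, the genes tested, the threshold and the table used for levels.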

Additional observations from a re-analysis of the deposited data

How the results depend on the processing

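No paired analysis was possible because the tables hold no values per library, and for the same reason no library could be left out in turn. Of the counts and levels recomputed, 69 stayed within 1.5 times the reported value and 3 moved. The 69 include the called differences between lines and between knockdowns, which were 0 under each setting. They also include changes, such as 2 members called in U2OS after siMYBL1 in place of 3, with only genes listed in all 6 tables. From the siMYBL2 tables alone, 6 members were at least 2-fold higher in U2OS in place of 9, of 22 compared in place of 26. With an adjusted p under 0.1, 1 member was called in HCT116 after siMYBL1 in place of 0, HOXA9 at -0.61 (adjusted p = 0.0775), and HOXB2 in the U2OS double knockdown passed at 0.52 (adjusted p = 0.0908). With only genes listed in all 6 tables, 1 member was called in the HCT116 double knockdown in place of 2, because HOXB4, listed in 5 tables, was not among the genes tested. From the double knockdown tables alone, 4 members were at least 2-fold higher in U2OS in place of 9, of 21 compared in place of 26. Signs were compared only for members called under some setting, and none of these changed. Only the centring altered their log2 values, so other signs could not change. The authors' own test column, an alternative chosen after seeing the data, adds a log2 limit of 0.5 to the adjusted p. Every member call already lay beyond that limit, so the column could change none. With 2 libraries per group, 13 of 30 (HCT116, siMYBL1) to 19 of 28 (U2OS, siMYBL1) members had 95% intervals within a 2-fold change.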

Other observations

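Retinoic acid, a classical inducer of HOX genes, has its own transport, synthesis and breakdown genes, of which 10 to 12 of 18 were listed per table. None was called after siMYBL1 in either line (0.260% of all genes in HCT116 and 5.71% in U2OS). In HCT116, 1 of 10 was higher after siMYBL2 (0.291% of all genes) and 2 of 10 in the double knockdown (2.82%). Among the latter, the authors' deposited table put ALDH1A3, which makes retinoic acid, at 0.60 ± 0.13 (q = 0.000188). In U2OS, 2 of 11 were higher after siMYBL2 (1.69% of all genes) and 1 of 11 in the double knockdown (6.55%). There the authors' deposited table put DHRS3, a retinal reductase, at 1.46 ± 0.24 (q = 1.50e-07) after siMYBL2, and STRA6, a retinol transporter, at 1.0 ± 0.26 (q = 0.00445) after siMYBL2 and 1.44 ± 0.25 (q = 4.23e-07) in the double knockdown. No gene of this list was called lower, and its medians lay between -0.06 and 0.22. Of all genes, 0.144% to 4.12% were called lower in HCT116 and 2.27% to 6.06% in U2OS. The list was not tested as a set.

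Of 13 ParaHox and related homeobox genes, 1 to 5 were listed per table and 0 were called. CDX2, the intestinal ParaHox gene, stood at 17.7 npm in HCT116 siCtrl cells and 4.26 in U2OS. Of 24 genes flanking the clusters, 18 to 20 were listed, with medians of -0.10 to 0.13. Outside the U2OS double knockdown 0 were called. There 1 of 19 was called higher and 1 lower, beside 6.55% and 6.06% of all genes. The authors' deposited table put CALCOCO1 at 0.77 ± 0.19 (q = 0.00123) and HNRNPA1 at -0.49 ± 0.16 (q = 0.0226).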
